A study of Mus musculus with 12 samples.

Results

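The miR-181 family, 4 mature guide strands named mmu-miR-181a, mmu-miR-181b, mmu-miR-181c and mmu-miR-181d (mmu for mouse, left out below), was followed in the blood of Tff2-KO and WT mice. The members were taken by name from the 710 miRNAs and star sequences on the biochip, and all 4 were found. Each array held the RNA of the pelleted peripheral blood cells of 1 mouse, with 6 Tff2-KO mice (tff2 KO in the labels) and 6 WT mice (wild type), 3 males and 3 females of each genotype. Both genotypes were of the 129/SV strain. The Tff2-KO mice lack Tff2, the gene of a trefoil peptide of the digestive mucosa, and had been generated earlier, while the WT mice came from a commercial breeder. Origin and genotype therefore cannot be told apart. Ages were not given in the sources used here, and no treatment was named. The biochip carries no mRNA probe, so Tff2 itself was not measured.

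As background, a miRNA guides a silencing complex to mRNAs mainly through its seed, the bases that follow its first base, so that members of a family with the same seed share many predicted targets. The miR-181 family is made from paired hairpins, in which a miR-181a hairpin lies next to a miR-181b hairpin, and the miR-181c hairpin lies next to that of miR-181d. It is best known from lymphocytes. In mice, miR-181a is abundant in the thymus, promotes B-lineage cells from progenitors of the bone marrow and raises the sensitivity of developing T cells to antigen by lowering phosphatases of the T-cell receptor pathway.

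The sequences are shown because the family rests on them and because they set how alike the probes' targets are. In the RefSeq table of GRCm38.p6, all 4 members matched an entry by name, and bases 2 to 8, the seed, are in capitals, 5′ to 3′.
miR-181a: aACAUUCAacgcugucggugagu
miR-181b: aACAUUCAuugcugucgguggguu
miR-181c: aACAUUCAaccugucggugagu
miR-181d: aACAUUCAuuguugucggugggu
All 4 members have the same seed, and among the 1679 mature names of the table no other had it. Behind the seed the members fall into another order than their hairpins. miR-181c is miR-181a without the G at position 11, counted from the 5′ end, an edit distance of 1 base. miR-181d differs from miR-181b by C12U and by the missing last base, an edit distance of 2. Within a hairpin cluster the strands differ more. miR-181b differs from miR-181a by A9U, C10U, A21G and 1 added base (edit distance 4), and miR-181c and miR-181d are 5 edits apart. Each member thus has its nearest sequence in the other cluster.

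miR-181a and miR-181b are each encoded at 2 loci on the plus strand. On chromosome 1, mature miR-181a lies at chr1:137966468-137966490 (Mir181a-1) and miR-181b at chr1:137966650-137966673 (Mir181b-1), with 159 bases between them. On chromosome 2 they lie at chr2:38852741-38852763 (Mir181a-2) and chr2:38853845-38853868 (Mir181b-2), 1081 bases apart and within the span of Nr6a1 and its antisense transcript Nr6a1os. miR-181c lies at chr8:84178924-84178945 and miR-181d at chr8:84178759-84178781 on the minus strand, with 142 bases between them. No other gene of the table overlaps the hairpins on chromosomes 1 and 8. Since both loci give the same mature strand, an intensity of miR-181a or miR-181b cannot be assigned to either locus.

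Intensities are not counts, and the precision is limited by the 12 arrays. Before normalization, the mean intensity of an array was 375 to 999.98 in the WT mice and 543 to 1151 in the Tff2-KO mice. The lowest value of an array, which is below 0 after background subtraction, lay between -88 and -32. The members were dim. Their raw intensities lay between 44 and 296 in the WT mice and between 56 and 444 in the Tff2-KO mice. A miRNA is called above background here where its raw intensity exceeded the absolute value of the lowest intensity of its array. miR-181b was above background on all 12 arrays, and miR-181a, miR-181c and miR-181d were on 11. The exception was WT replicate 1, where their raw intensities of 76, 64 and 64 did not exceed 76. miR-181b was barely above background in WT replicates 2 and 3, with raw intensities of 56 against 52 and 44 against 40. The intensities below were quantile normalized over the 12 arrays. The genotypes were compared on the log2 scale with limma over all 710 miRNAs and Benjamini-Hochberg adjustment, and with a two-sided exact permutation test of each member. In blood, fewer cells of a type and less of the miRNA per cell cannot be told apart.

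All 4 members had higher mean log2 intensities in Tff2-KO than in WT mice, by 1.43- to 1.68-fold, but none passed an adjusted p under 0.05. The genotypes overlapped in each of the 4, and of the whole array 1.13% did not overlap. In 50.4% of the 710 miRNAs the log2 fold change was above 0, and in 14.9% it was at least as large as that of miR-181a, the smallest of the family. The median log2 fold change was 0.60 over the 4 members and 0.013 over all miRNAs. In limma 0 miRNAs (0%) passed an adjusted p under 0.05, with 67 (9.44%) at an unadjusted p under 0.05. Of these 27 (3.8% of the array) had a higher and 40 (5.63%) a lower mean with Tff2-KO. Of the family miR-181c was among the 27 and the other 3 were in neither group. The methods' t-test likewise gave 0 after adjustment and 70 before it. The 0 was not kept in every setting, since limma gave 4 with normexp background correction, 6 over the brighter miRNAs alone, 2 with a robust intensity trend, 2 in males only and 3 in females only. No member of the family was among these.

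miR-181c, a member of the chromosome 8 cluster, spanned 69.3 to 150 (median 115.5) over the WT mice and 130 to 218 (median 155) over the Tff2-KO mice. The 3 highest mice were Tff2-KO replicates 2, 3 and 4, and 5 of the 6 WT mice lay below all Tff2-KO mice. WT replicate 5, at 150, was the WT mouse that reached into the Tff2-KO range. Geometric means were 108 for WT and 164 for Tff2-KO, a log2 difference of 0.61 ± 0.22 (standard error, 95% interval 0.13 to 1.09, n = 6 mice each). The exact permutation p was 0.00866 and the unadjusted p in limma 0.0176, while the adjusted p was 0.404.

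miR-181d, its neighbour on chromosome 8, spanned 54.0 to 134 (median 90.5) over the WT mice and 94.0 to 207 (median 122.5) over the Tff2-KO mice. Tff2-KO replicates 2 and 3 were above all WT mice, and WT replicates 1, 2 and 6 were below all Tff2-KO mice. Geometric means were 89.2 for WT and 135 for Tff2-KO, a log2 difference of 0.59 ± 0.28 (standard error, 95% interval -0.0071 to 1.19, n = 6 mice each). The difference did not pass (exact permutation p = 0.0606, adjusted p in limma = 0.507).

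miR-181b had the largest log2 fold change of the family and the widest interval. It spanned 41.8 to 118 (median 87.9) over the WT mice and 68.7 to 207 (median 141) over the Tff2-KO mice. Tff2-KO replicates 2, 3 and 4 were high, at 187 to 207, while the other 3 at 68.7 to 94.0 lay within the WT range. Geometric means were 74.2 for WT and 124 for Tff2-KO, a log2 difference of 0.74 ± 0.38 (standard error, 95% interval -0.078 to 1.57, n = 6 mice each). The exact permutation p was 0.0823 and the adjusted p in limma 0.531. The lowest WT values were those of WT replicates 2 and 3 (41.8 and 45.2), which were barely above background. Without WT replicate 2 the log2 difference was 0.59, below that of miR-181c (0.65). Without WT replicate 3 it was 0.60, below that of miR-181d (0.69).

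miR-181a, the member best known from thymocytes, spanned 82.3 to 293 (median 188) over the WT mice and 142 to 339 (median 282.5) over the Tff2-KO mice. Tff2-KO replicates 2, 3 and 6 were above all WT mice and WT replicates 1 and 2 below all Tff2-KO mice. Geometric means were 173 for WT and 246 for Tff2-KO, a log2 difference of 0.51 ± 0.33 (standard error, 95% interval -0.20 to 1.22, n = 6 mice each). This was the smallest difference of the 4 (exact permutation p = 0.152, adjusted p in limma = 0.591).

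**Figure D1:**
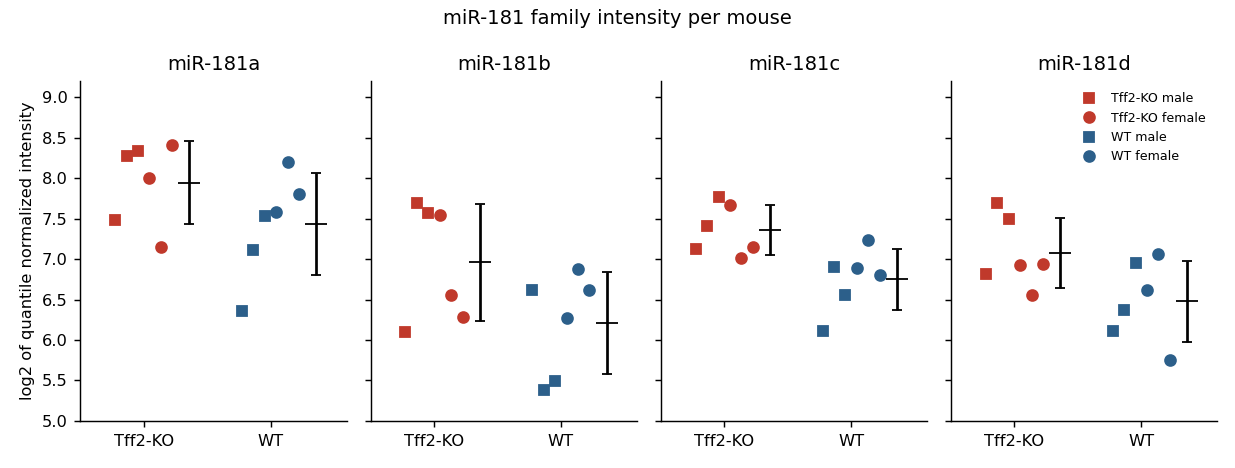
Quantile normalized intensity (log2) of each member in each mouse, with the mean and SD (n = 6) as black bars, squares for males and circles for females, replicates in order from left to right. The genotypes overlap in all 4 panels, and Tff2-KO replicates 2 and 3 are above every WT mouse in each.

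**Figure D2:**
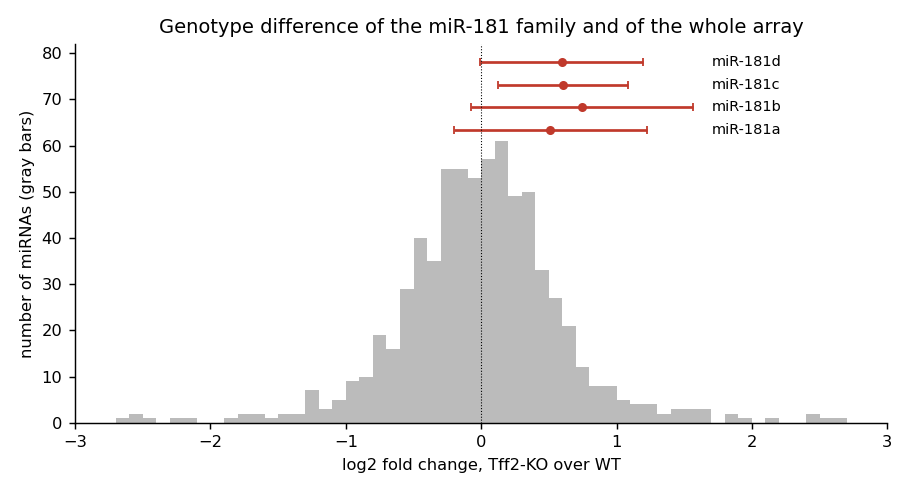
Log2 fold change between Tff2-KO and WT (above 0 where Tff2-KO is higher) for all 710 miRNAs (gray histogram) and, in red above it, for the 4 members with their 95% intervals from limma. The members lie between 0.51 and 0.74, where the median of the array is 0.013, and the interval of miR-181c alone lies above 0.

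The same mice were high or low across the family. Tff2-KO replicates 2 and 3 were above all WT mice in all 4 members, and WT replicate 2 was below all Tff2-KO mice in all 4. WT replicate 1 was below them in 3. Tff2-KO replicates 1 and 5 were above all WT mice in none. Tff2-KO replicate 2 was also the array with the highest mean raw intensity (1151) and WT replicate 2 that with the lowest (375). Other arrays departed from this order. WT replicates 4 and 6 came next in brightness (999.98 and 930), and WT replicate 6 had the lowest miR-181d (54.0). Tff2-KO replicate 6 was the dimmest Tff2-KO array (543) and had the highest miR-181a (339). The part of array brightness in the values of the members was not tested. Without Tff2-KO replicate 2 the log2 fold changes of miR-181a, miR-181b, miR-181c and miR-181d were 0.43, 0.59, 0.59 and 0.46. Without WT replicate 1, where 3 members were not above background, they were 0.30, 0.83, 0.49 and 0.52. The value of miR-181a thus fell by more than 1.5 times without that mouse.

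The hairpin clusters were then compared as pairs. The a/b pair, as the mean log2 intensity of miR-181a and miR-181b, was 6.82 ± 0.49 for WT and 7.45 ± 0.54 for Tff2-KO (SD, n = 6 mice each), a difference of 0.63. The c/d pair was 6.61 ± 0.37 for WT and 7.21 ± 0.34 for Tff2-KO, a difference of 0.60. As folds these were 1.55 and 1.52. The c/d minus a/b contrast differed by -0.028 between the genotypes, with a standard error of 0.22 from the spread of the mice. The difference between the pairs was thus smaller than its error, which does not show that they were equal. No p is given, since the score combines members chosen with earlier results known.

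Per mouse, the geometric mean of the c/d pair spanned 69.3 to 142 (median 103) over the WT mice and 110 to 199 (median 144) over the Tff2-KO mice. That of the a/b pair spanned 76.1 to 186 (median 106) over the WT mice and 111 to 253 (median 189) over the Tff2-KO mice. In the c/d pair 5 of the 6 WT mice lay below all Tff2-KO mice, and in the a/b pair 3 did. Single mice departed from the common order. WT replicate 6 had the c/d pair at 77.8 beside an a/b pair of 148, a c/d minus a/b value of -0.93, while the other 11 mice lay between -0.47 and 0.38.

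**Figure D3:**
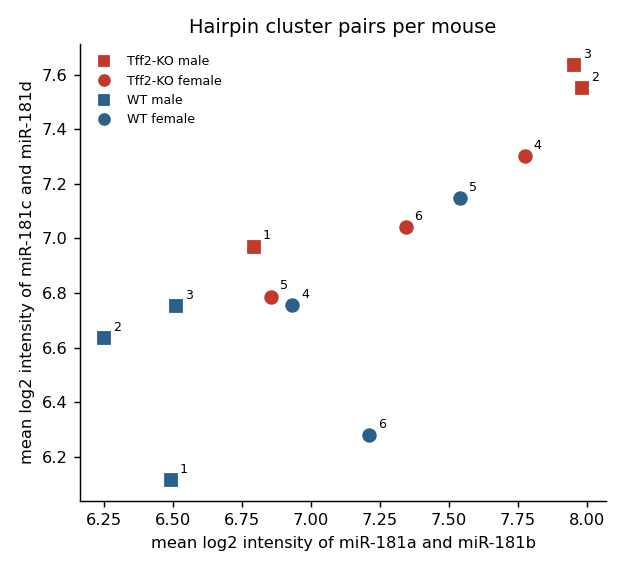
Mean log2 intensity of the a/b pair (x axis) against that of the c/d pair (y axis) in each of the 12 mice, labelled by replicate number. Tff2-KO replicates 2, 3 and 4 lie at the upper right, and WT replicate 6 has a c/d pair that is low for its a/b pair.

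In males the members were further apart between the genotypes than in females, but the test of this difference was not passed in any member. In a genotype by sex model, the log2 fold change in males was 1.03 for miR-181a, 1.29 for miR-181b, 0.91 for miR-181c and 0.86 for miR-181d (standard errors 0.42, 0.52, 0.30 and 0.39, n = 3 mice per sex and genotype). In females it was -0.0084, 0.20, 0.30 and 0.33 with the same standard errors. The female minus male difference was -1.04 for miR-181a (95% interval -2.36 to 0.28), -1.09 for miR-181b (-2.72 to 0.55), -0.61 for miR-181c (-1.55 to 0.33) and -0.53 for miR-181d (-1.75 to 0.69). In limma the adjusted p of these differences lay between 0.549 and 0.687.

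Among the WT mice, females had higher geometric means than males in miR-181a, miR-181b and miR-181c, a difference that was not tested, and about the same in miR-181d. The geometric mean of miR-181a was 128 in WT males and 233 in WT females, beside 262 and 231 in Tff2-KO males and females. That of miR-181b was 57.1 in WT males and 96.5 in WT females. For miR-181c it was 92.0 and 126. miR-181d was at 89.2 in WT males and 89.3 in WT females. In males, miR-181c was the member whose genotypes did not overlap, with all 3 Tff2-KO above all 3 WT males, as in 11.3% of all miRNAs. In females the genotypes overlapped in all 4 members, where 5.49% of all miRNAs had all 3 Tff2-KO above all 3 WT females. With 3 mice against 3, a two-sided exact permutation test cannot go below p = 0.1.

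**Figure D4:**
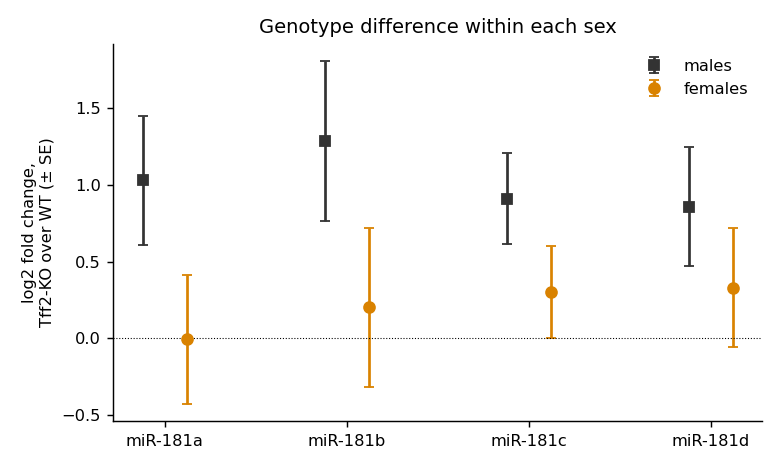
Log2 fold change between Tff2-KO and WT (above 0 where Tff2-KO is higher) within males (squares) and females (circles) for each member, with standard errors from the genotype by sex model (n = 3 mice per sex and genotype). The male values lie between 0.86 and 1.29 and the female values between -0.0084 and 0.33. The error bars of miR-181d overlap.

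The highest r between members was that of miR-181a and miR-181c, whose sequences are the closest. In 4 of the 6 pairs of members the log2 intensities were correlated over the 12 mice. How large a share of all pairs of miRNAs on the array would pass was not computed, so the 4 cannot be read as particular to the family. Of these 4, miR-181a and miR-181c alone passed with 75th percentile scaling, where the adjusted p was 0.105 for miR-181a and miR-181d and 0.0790 for both miR-181b and miR-181c and miR-181c and miR-181d. Each of these 3 pairs also failed to pass when any of 6 to 8 single mice was left out, and miR-181a and miR-181c failed without WT replicate 1 (adjusted p = 0.0611). miR-181a and miR-181c had r = 0.79 (permutation p = 0.00225, adjusted over 6 pairs 0.0135) and rho = 0.71 (permutation p = 0.0115, adjusted 0.0284). Without the 2 mice farthest from the median of miR-181a, r was 0.69. miR-181c and miR-181d, from the same cluster, had r = 0.69 (permutation p = 0.0143, adjusted 0.0375) and rho = 0.70 (permutation p = 0.0142, adjusted 0.0284), and r = 0.52 without the 2 farthest mice. miR-181a and miR-181d had r = 0.66 (permutation p = 0.0196, adjusted 0.0375) and rho = 0.71 (permutation p = 0.0119, adjusted 0.0284), and r = 0.62 without the 2 farthest mice. miR-181b and miR-181c had r = 0.64 (permutation p = 0.0250, adjusted 0.0375) and rho = 0.62 (permutation p = 0.0361, adjusted 0.0541), and r = 0.66 without the 2 farthest mice.

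Neither the other cluster pair nor the other pair of close sequences passed. miR-181a and miR-181b, which share their loci, had r = 0.49 (permutation p = 0.103, adjusted 0.108) and rho = 0.57 (permutation p = 0.0581, adjusted 0.0697). Without the 2 mice farthest from the median of miR-181a, r was 0.82. miR-181b and miR-181d, 2 edits apart, had r = 0.49 (permutation p = 0.108, adjusted 0.108) and rho = 0.44 (permutation p = 0.149, adjusted 0.149), and r = 0.25 without the 2 farthest mice. Whether probes bind the neighbouring sequence was not tested.

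All members had a higher mean in Tff2-KO mice, so r was also computed within the genotypes. With each genotype's mean taken out, r was 0.75 for miR-181a and miR-181c, 0.56 for miR-181a and miR-181d, 0.50 for miR-181c and miR-181d, 0.45 for miR-181b and miR-181c, 0.35 for miR-181a and miR-181b and 0.27 for miR-181b and miR-181d. Within the 6 Tff2-KO mice the 6 values of r lay between 0.49 and 0.85. Within the 6 WT mice, miR-181a and miR-181c had r = 0.85 (exact permutation p = 0.0389, adjusted 0.233), while miR-181b had r of 0.22, 0.09 and -0.18 with miR-181a, miR-181c and miR-181d. Within a genotype no pair passed after adjustment over the 6 pairs.

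**Figure D5:**
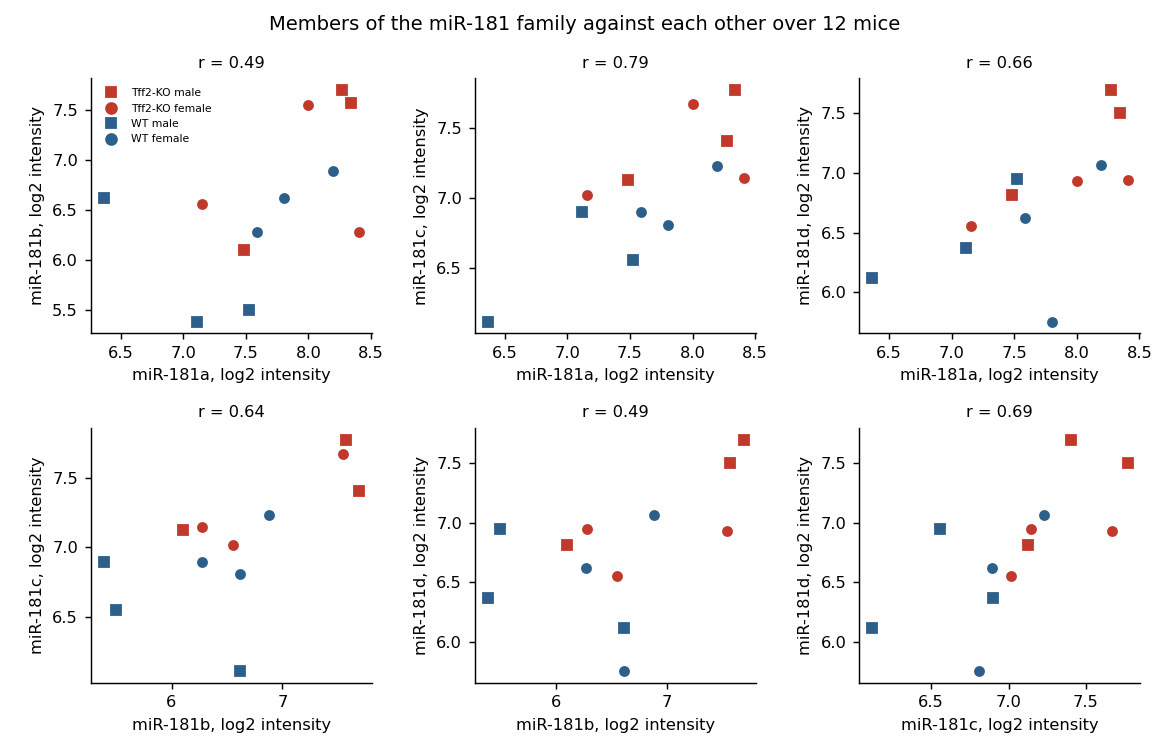
Log2 intensity of each member against each other member over the 12 mice, with Pearson's r above each panel, squares for males and circles for females. miR-181a and miR-181c lie closest to a line (r = 0.79), and the panels of miR-181b with miR-181a and with miR-181d are the most scattered (r = 0.49 each).

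The array also carries the other strand of both miR-181a hairpins, which the cell mostly discards. They are printed to show that they are unlike the guides and that each has a seed of its own.
miR-181a-1*: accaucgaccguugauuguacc
miR-181a-2*: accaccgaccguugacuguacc
miR-181a-1*, which comes from the chromosome 1 locus, spanned 108 to 164 (median 137.5) over the WT mice and 67.8 to 151.5 (median 114) over the Tff2-KO mice. Geometric means were 133 for WT and 107 for Tff2-KO, a log2 difference of -0.31 ± 0.24 (standard error, n = 6 mice each). The genotypes overlapped, and the difference did not pass (exact permutation p = 0.197, adjusted p in limma = 0.638). miR-181a-2*, from chromosome 2, was above background on 2 of the 12 arrays, so no fold is given. Its raw intensities lay between -16 and 84 in the WT mice and between -24 and 52 in the Tff2-KO mice.

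Other miRNAs whose pattern over the 12 mice was most like a member were taken from the 411 miRNAs that were above background on at least 10 arrays. For miR-181a these were miR-1937a (r = 0.87), miR-705 (0.83) and miR-676 (0.77). For miR-181b they were miR-126-3p (0.75), a miRNA of platelets and endothelium, miR-704 (0.75) and miR-106b* (0.74). For miR-181c they were miR-338-3p (0.75), miR-297a (0.75) and miR-705 (0.73), and for miR-181d miR-762 (0.77), miR-675-3p (0.76) and miR-326 (0.75). miR-705 was the name that came up for more than 1 member. These are the highest of many values of r and are given without a test. With each genotype's mean taken out, r rose to 0.83 for miR-704 with miR-181b and was lower for all the others. It then lay between 0.57 (miR-338-3p with miR-181c) and 0.86 (miR-1937a with miR-181a). The highest r with another member was 0.79 for miR-181a, 0.64 for miR-181b, 0.79 for miR-181c and 0.69 for miR-181d. Only for miR-181c was this above the r of the first miRNA named here. All 11 miRNAs named here shared their arrays and normalization with the members.

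The pellets held all blood cells, so the lymphoid label of the family was set beside markers of the cell types. Of 6 other miRNAs known from lymphocytes 4 had a log2 fold change above 0 (50.4% of the array did), with a median of 0.33. In limma 0 of the 6 had an unadjusted p under 0.05 (9.44% of the array did). Geometric means of miR-150, abundant in mature lymphocytes, were 1148 for WT and 1489 for Tff2-KO (log2 difference 0.38 ± 0.48, standard error). The summed intensity of the 6 spanned 965 to 3793 (median 1961) over the WT mice and 1452 to 3900 (median 2173) over the Tff2-KO mice, so that the genotypes overlapped widely. miR-155, miR-146b and miR-342-5p were above background on fewer than 10 arrays. miR-155 and miR-342-5p were among the 4 above 0, so that the count and the median rest in part on values at background. The part of the share of lymphocytes in the values of the family was not tested.

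Among 4 miRNAs listed as myeloid 1 had a log2 fold change above 0 (50.4% of the array did), with a median of -0.073. Whether the miRNAs of this or of the other lists are particular to their cell type was not tested. The sum of the 4 myeloid miRNAs spanned 2338 to 4846 over the WT mice and 2310 to 4060 over the Tff2-KO mice. Geometric means of miR-223, the granulocyte miRNA, were 1351 for WT and 1234 for Tff2-KO. miR-142-3p was the 1 with a log2 fold change above 0 and had an unadjusted p under 0.05 in limma (9.44% of the array did). It was above background on 1 array, so no fold is given. Of 4 red blood cell miRNAs 0 had a log2 fold change above 0 (50.4% of the array did), with a median of -0.18. Their sum spanned 57404 to 78260 over the WT mice and 55972 to 76829 over the Tff2-KO mice. It was mostly miR-486 and miR-16, with geometric means of 36548 and 28566 for WT and 36508 and 27208 for Tff2-KO. The highest value of miR-486 was 40625 in both genotypes. Quantile normalization gives every array the same top values, so the likeness of this sum between genotypes says little about red cell content. miR-451, which is made in red cell precursors, had geometric means of 1864 for WT and 1498 for Tff2-KO. Of 4 platelet and endothelial miRNAs 3 had a log2 fold change above 0 (50.4% of the array did), with a median of 0.33. Sums of the 4 were 1509 to 3146 over the WT mice and 1527 to 2473 over the Tff2-KO mice. Of the 3, miR-126-5p, was above background on 0 of the 12 arrays, so that the count and the median rest in part on values at background. The log2 differences of miR-221 and miR-222 were 0.15 and -0.17. miR-126-3p, which was among the miRNAs most like miR-181b, had geometric means of 164 for WT and 233 for Tff2-KO (log2 difference 0.51 ± 0.24, standard error, adjusted p in limma = 0.507). miR-150, miR-223, miR-451 and miR-126-3p, the defining markers of the 4 lists, were above background on all 12 arrays.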

How the data were processed

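Total RNA with miRNAs from blood cell pellets was hybridized to Geniom biochips with biotin labelling on the chip, with 7 spots per miRNA. Per the methods, the authors read spots with the Geniom Wizard software, removed background and summarised the spots of each miRNA by their median. These intensities were deposited raw, unscaled between arrays. The authors also deposited intensities on a linear scale that they had quantile normalized, over arrays that are not given in the sources used here.

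Here the raw values of the 12 arrays were quantile normalized together, set to at least 1 and logged (limma 3.58.1, R 4.3.3). lmFit and eBayes were run over all 710 miRNAs, with an adjusted p under 0.05 as threshold. The fit was also run on simulated data with planted differences larger than those of the members. That run does not show how often differences of the members' size would be found. Each mouse was a replicate, and p-values rest on the spread between mice. Exact permutation tests ran over the 924 groupings of the mice, and correlations over 12 mice used 100000 permutations (Python 3.11.15, numpy 2.4.6, scipy 1.17.1). Standard errors are those of limma unless stated.

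The members and the marker lists were chosen with earlier results of these data known. Named are the members, other strands of their hairpins, miRNAs with the same seed and the 3 miRNAs most like each member. Of each marker list the defining miRNA is named, with any at an unadjusted p under 0.05. Other list members are named where a count, median or sum rests on them. Alternatives were the authors' value table, other scalings, normexp (offset 50), 16 added before the log, a filter on dim miRNAs, covariates and weights, single mice left out and each sex alone. Sequences and positions come from RefSeq (GRCm38.p6). Plots were drawn with matplotlib 3.10.9.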

Additional observations from a re-analysis of the deposited data

How the results depend on the processing

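Of 27 other settings, 26 left the log2 fold change of miR-181a above 0 and all 27 did so for miR-181b, miR-181c and miR-181d. The exception was females only, where miR-181a was at -0.020 (the cause was not tested). No setting brought a member to an adjusted p under 0.05 (lowest 0.184, miR-181c). miR-181c had an unadjusted p under 0.05 in 25 of the 27, miR-181b and miR-181d in 7 each and miR-181a in 1. The exceptions for miR-181c were no normalization between arrays (unadjusted p in limma = 0.0909) and females only (0.330). The settings share their arrays, and 12 of them only leave out 1 mouse. Without 1 mouse in turn, the log2 fold changes ranged from 0.30 to 0.67 (miR-181a), 0.59 to 0.93 (miR-181b), 0.49 to 0.71 (miR-181c) and 0.45 to 0.72 (miR-181d). With 75th percentile scaling, where the median of all miRNAs was -0.12, they were 0.48, 0.61, 0.52 and 0.49.

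The count of miRNAs at an unadjusted p under 0.05 was 67, but 117 in males only and 33 in females only, and 42 to 96 without 1 mouse in turn. At an adjusted p under 0.05 the count was 0, but 4 with normexp, 6 over the brighter miRNAs, 2 with a robust intensity trend, 2 in males only and 3 in females only. The share of higher ones was 40.3%, 16.1% without normalization, 27.6% with 75th percentile scaling and 60.2% with median scaling. The c/d minus a/b contrast ranged from -0.26 to 0.23 over the scalings and sexes and from -0.17 to 0.09 without 1 mouse in turn. No call changed for the sex differences.

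Same-numbered mice of the genotypes were of the same sex, so a block on the number also takes up sex. Their deviations from the genotype means correlated from -0.17 to 0.11, which cannot show whether the numbers carry anything else. With the number as a replicate block, the unadjusted p of miR-181c was 0.0408, those of miR-181a, miR-181b and miR-181d were 0.159, 0.160 and 0.0730, and 50 miRNAs were at an unadjusted p under 0.05.

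With 75th percentile scaling, r of miR-181a and miR-181d was 0.54, of miR-181b and miR-181c 0.60 and of miR-181c and miR-181d 0.61, and none of these passed. miR-181a and miR-181b passed without normalization (r = 0.62) and with median scaling (r = 0.61). Without 1 mouse in turn, r ranged from 0.62 to 0.82 for miR-181a and miR-181c, which did not pass without WT replicate 1. It ranged from 0.59 to 0.87 for miR-181a and miR-181d, which did not pass without Tff2-KO replicate 2, 3, 4 or 5 or WT replicate 1, 2, 4 or 5. For miR-181b and miR-181c it was 0.54 to 0.85 (not passed without Tff2-KO replicate 2, 3, 4 or 5 or WT replicate 3, 4 or 5), and for miR-181c and miR-181d 0.61 to 0.77 (not passed without Tff2-KO replicate 2, 3 or 5 or WT replicate 1, 4 or 5). For miR-181a and miR-181b it was 0.41 to 0.69 and for miR-181b and miR-181d 0.32 to 0.61.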
